A study of Homo sapiens with 95 samples.

Results

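AALE cells, which are immortalized epithelial cells of the human bronchus, were engineered to overexpress FGFR1, the gene of fibroblast growth factor receptor 1, and were compared with AALE cells carrying an HcRed reporter vector, both kept in the solvent DMSO. The comparison held 3 FGFR1 libraries and 3 HcRed libraries, 6 of the 95 in the series, and the libraries were chosen by their labels. RNA was profiled by sparse full length (SFL) sequencing, in which ribosomal RNA is depleted and barcoded libraries are sequenced in a pool. The series crossed 8 genotypic perturbations with 4 treatments. Besides FGFR1, the overexpressed genes were NRF2 (NFE2L2), NRG1 and PIK3CA, with HcRed as their control, and FAT1 and CDKN2A were knocked out by CRISPR, with cells given a Cas9 and GFP plasmid but no guide as control. The other treatments were cigarette smoke condensate (CSC, 24 μg/ml), benzo(a)pyrene (BaP, 173 μM) and the tobacco nitrosamine NNK (490 μM). All lines derive from AALE cells, and the labels name a single FGFR1 line. The study describes its replicates as biological, and how far they were cultured apart was not given in the sources used here.

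FGFR1 is a receptor tyrosine kinase at the cell surface. Binding of a fibroblast growth factor (FGF), with heparan sulfate proteoglycans as co-receptors, brings receptors together, and adaptors such as FRS2 and GRB2 then pass the signal to the RAS, RAF, MEK and ERK kinases and to PI3K and AKT. Active ERK raises transcription of a set of genes that dampen or relay the signal, among them the DUSP phosphatases, the Sprouty and SPRED inhibitors and the ETV transcription factors. FGFR1 is amplified in a share of squamous lung cancers, and airway basal cells, marked by KRT5, KRT14 and TP63, are the stem cells of the bronchial epithelium.

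The 6 libraries held between 694898 and 1173281 counted reads, with 1014679 to 1097956 in the FGFR1 group and the lowest value in HcRed replicate 2. Of 27978 listed genes, 14214 had a mean count above 1 over the 6 libraries and were tested, and 9412 had no read in any of them. Reads of basal keratins were plentiful, as the epithelial label requires, with KRT5 at 4344, 3762 and 3411 reads in the FGFR1 and 4906, 2851 and 4108 in the HcRed libraries. Of the defining markers of other cells, PECAM1, PTPRC, LYZ, COL3A1 and PDGFRA had no read in any of the 6 libraries and FOXJ1 of ciliated cells had at most 1, while COL1A1 had 10 to 26 reads, FBLN1 12 to 22 and CD68 4 to 16. Over the full lists, 4 of 10 fibroblast, 4 of 13 endothelial and blood cell, 7 of 15 ciliated and 8 of 21 airway secretory markers passed the count filter. Summed levels were 35.45 to 48.52 CPM in FGFR1 and 32.13 to 59.78 in HcRed libraries for the fibroblast list and 27.07 to 36.62 against 19.47 to 31.93 for the ciliated list. They did not overlap for the endothelial and blood cell list, at 28.04 to 31.12 against 11.39 to 24.34, where CSF1R had 11, 14 and 9 against 3, 2 and 8 reads, nor for the secretory list, at 42.35 to 62.25 against 63.28 to 64.73. None of these markers but SLPI was called over HcRed with DMSO, and their part in the results was not tested. Levels below are CPM, read counts scaled to a common library size with TMM factors, and log2 fold changes are those of limma on voom-transformed counts, in which a gene was called when its Benjamini-Hochberg adjusted p fell under 0.05. In such bulk samples fewer cells of a kind and less RNA per cell cannot be told apart.

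FGFR1 itself carried the label. The gene lies on chromosome 8 of GRCh37 at bases 38257733 to 38326352. It had 1162, 1089 and 985 reads in the FGFR1 libraries against 58, 36 and 30 in the HcRed libraries, which is 1064, 1053 and 970.1 CPM against 50.06, 51.24 and 29.21 CPM. The groups were far apart, with a 24.4-fold difference (log2 fold change 4.61, SE 0.15, limma adjusted p = 3.23e-33). Elsewhere among the DMSO libraries the level of FGFR1 reached at most 91.67 CPM, in the NRG1 line. The 8 FGFR1 libraries with CSC, BaP or NNK held between 1072 and 1386 CPM, and their 9 HcRed counterparts between 44.57 and 71.15 CPM. None of 15 genes that neighbour FGFR1 on the short arm of the chromosome was called, with a median log2 fold change of 0.04. TACC1 beside it, for example, had 242, 247 and 213 reads with FGFR1 and 213, 130 and 192 with HcRed (log2 fold change 0.27, limma adjusted p = 0.165).

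FGFR1 libraries 2 and 3 stood apart in another gene. NRG1, the ligand neuregulin 1, had 18, 380 and 355 reads in FGFR1 replicates 1, 2 and 3 and 31, 12 and 13 in the HcRed replicates. In CPM, replicate 1 was at 16.48, while replicates 2 and 3 were at 367.4 and 349.6, or 5.45% and 5.18% of the mean of the NRG1 overexpression line. NRG1 was not called (log2 fold change 2.71, limma adjusted p = 0.0571). Every other DMSO library outside the NRG1 line lay between 12.66 and 36.55 CPM, except CDKN2A replicate 3 at 252.5 CPM, and 1 of the 8 carcinogen-treated FGFR1 libraries, with BaP, reached 91.62 CPM. The part of these 2 libraries in the results was measured by leaving both out: with FGFR1 replicate 1 alone, 121 genes were called, 100 of them among the calls made with all 6 libraries. In that reduced fit the single library is assumed to vary as the others do.

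**Figure D1:**
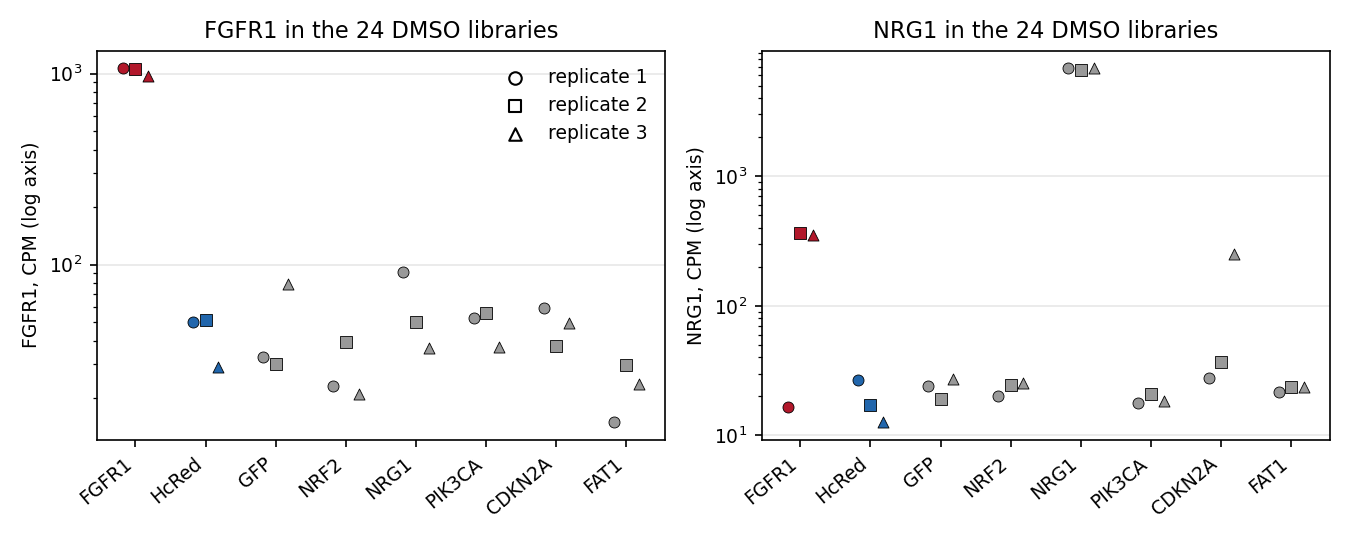
FGFR1 (left) and NRG1 (right) in the 24 DMSO libraries, in CPM on log axes, with 1 point per library, grouped by line and shaped by replicate number. The 3 FGFR1 libraries sit between 970.1 and 1064 CPM of FGFR1, and replicates 2 and 3 of that line and CDKN2A replicate 3 sit above 250 CPM of NRG1.

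With DMSO, 265 of 14214 genes were called between FGFR1 and HcRed, which is 1.86% of those tested. Of these, 155 (1.09%) were higher and 110 (0.774%) lower in FGFR1 cells. The rises were larger: 52 of the 155 exceeded 2-fold with a median log2 fold change of 0.66, against 13 of the 110 falls with a median of -0.52. At an unadjusted p under 0.05 there were 1800 genes, and the 2 groups did not overlap in 2406 genes (16.9%). The median log2 fold change over all genes was 0.00. HcRed replicate 1 was the most influential library, since 119 genes were called without it, 113 of them among the 265. Of 67 called genes that the naming rule picked and that were checked in this way, not all of them described here, 30 were called whichever of the 6 libraries was left out.

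**Figure D2:**
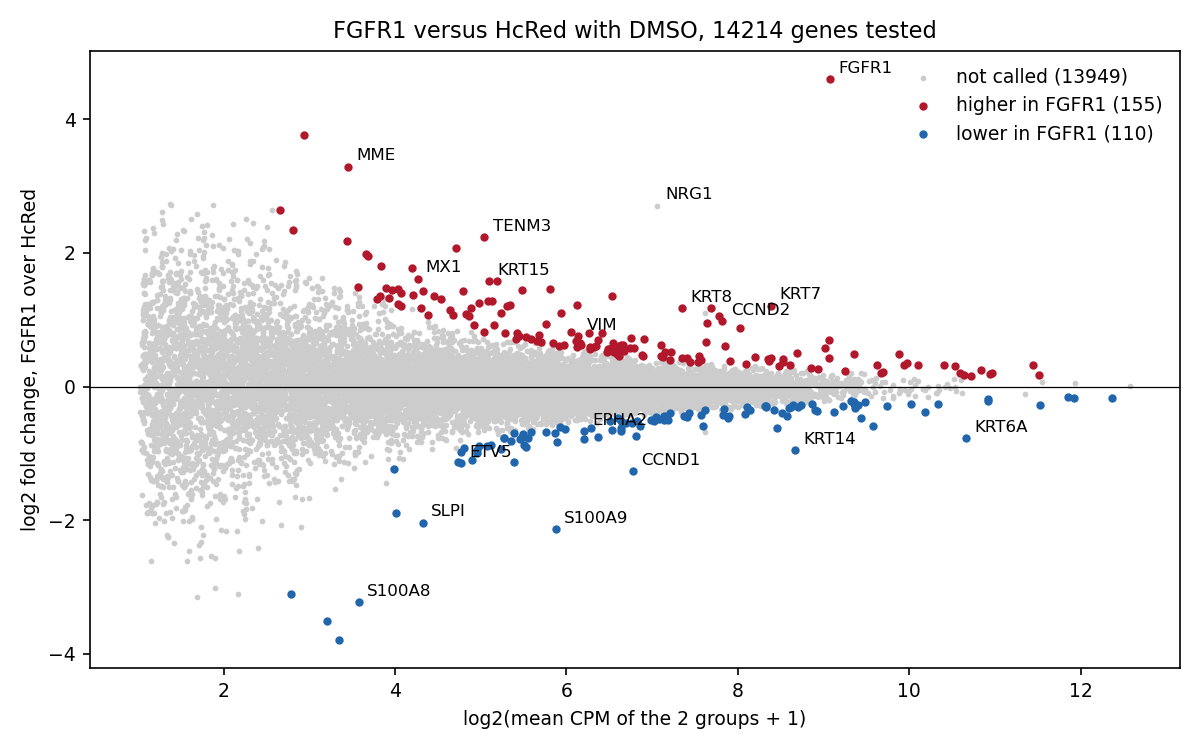
Log2 fold change of FGFR1 over HcRed with DMSO against log2 of the mean CPM, 1 point per gene tested, with the 155 genes called higher in red and the 110 called lower in blue. FGFR1 stands alone at 4.61, and NRG1, among the grey points, was not called.

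3 further comparisons are set beside the first. Against the mean of the NRF2, NRG1 and PIK3CA lines with DMSO, which uses no HcRed library but the same FGFR1 libraries, 619 of 14335 genes (4.32%) were called, 352 (2.46%) higher and 267 (1.86%) lower in FGFR1. In CSC, BaP and NNK together, with treatment in the model and no library in common with the DMSO comparison, 1357 of 14309 genes (9.48%) were called, 666 (4.65%) higher and 691 (4.83%) lower. The FGFR1 libraries were also set against the GFP line, the control of the CRISPR knockouts. That line differed widely from HcRed (2518 genes called by limma), and against it 2913 genes were called. Of the 265 DMSO calls, 163 were called in the same direction against GFP and 19 in the opposite one. The value against GFP is therefore given beside each called gene described here that the naming rule picked and whose direction turned. Called genes outside that rule are given without it, so their direction against GFP is not stated.

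No FGF receptor other than FGFR1 was called over HcRed with DMSO. FGFR3 had 125, 98 and 81 reads in FGFR1 cells and 102, 72 and 89 in HcRed cells, which overlapped in CPM (log2 fold change 0.07, limma adjusted p = 0.893), and it was called over the NRF2, NRG1 and PIK3CA lines at 0.36 (limma adjusted p = 0.0474). FGFR2 had 28, 34 and 23 against 39, 26 and 30 reads, and FGFR4 had at most 6 in any of the 6 libraries. FGFRL1, a receptor without a kinase domain, had 67, 56 and 54 against 66, 50 and 63 reads. KL, the klotho co-receptor, had none. Of 10 members tested, only FGFR1 was called higher, and 1 was called lower. That was SDC1, a heparan sulfate proteoglycan, with 318, 302 and 282 reads against 426, 243 and 354 (log2 fold change -0.30, limma adjusted p = 0.0252). SDC1 held its call in 1 of 6 fits that left out a library (highest limma adjusted p 0.182) and had a log2 fold change of 0.38 against GFP.

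Among the ligands, FGF2 rose. FGF2, a basement membrane-bound ligand of FGFR1, had 32, 21 and 20 reads in FGFR1 cells and 9, 4 and 12 in HcRed cells, with no overlap (log2 fold change 1.39, SE 0.35, limma adjusted p = 0.0153). The call was lost without FGFR1 replicate 1, HcRed replicate 1 or HcRed replicate 2, with an adjusted p of up to 0.164. FGF2 was also called higher with the carcinogens (0.75), while its log2 fold change over the NRF2, NRG1 and PIK3CA lines was 0.59 and not called (limma adjusted p = 0.115). Of 25 ligands and binding proteins, 6 passed the count filter and 11 had no read in any of the 6 libraries. FGFBP1, which releases FGFs from the matrix, had 71, 69 and 94 against 110, 58 and 111 reads and was not called with DMSO.

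Downstream of the receptor, no transcript of the cascade itself was called over HcRed with DMSO. None of 12 receptor adaptors was called (median log2 fold change -0.04), none of 14 genes from RAS to ERK (0.02) and none of 18 PI3K to AKT genes (-0.08). With the carcinogens 4 of 18 PI3K to AKT genes were called, MTOR among them, 1 of 14 from RAS to ERK and 1 of 12 adaptors, SHC1. All of these were lower, beside 4.83% of all genes called lower there. Over the other overexpression lines PIK3CA alone was called, lower, a gene overexpressed in the PIK3CA line. PTPN11, the phosphatase SHP2 that couples FGF receptors to RAS, had 380, 349 and 373 reads with FGFR1 and 460, 250 and 384 with HcRed, and the groups overlapped in CPM (log2 fold change -0.11, limma adjusted p = 0.599).

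Of the genes that ERK induces, CCND1, ETV5 and EPHA2 fell in FGFR1 cells and none rose. Of 17 tested, 14 had a log2 fold change below 0, with a median of -0.56, and these 3 were called. CCND1, the gene of cyclin D1, had 68, 60 and 73 reads with FGFR1 and 173, 99 and 173 with HcRed, which is 64.05 ± 7.11 against 152.9 ± 14.1 CPM (SD, n = 3 each). CCND1 fell by 1.26 on the log2 scale (SE 0.14, limma adjusted p = 3.64e-10), and the call held whichever library was left out. ETV5, an ETS transcription factor, had 13, 13 and 25 against 35, 32 and 34 reads (log2 fold change -1.15, SE 0.27, limma adjusted p = 0.00783). EPHA2, an ephrin receptor, had 47, 63 and 68 against 109, 62 and 85 reads (-0.67, SE 0.16, limma adjusted p = 0.00803). In CPM none of these 3 genes overlapped between the groups, which the rule for naming the largest falls required of CCND1 and ETV5. ETV5 lost its call without FGFR1 replicate 1 or 2 (adjusted p up to 0.108), and EPHA2 without FGFR1 replicate 1 or HcRed replicate 1 (up to 0.185). By DESeq2 CCND1 was called (adjusted p = 1.68e-09), and ETV5 (0.198) and EPHA2 (0.249) were not.

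The phosphatases and inhibitors of ERK had fewer reads, and none was called with DMSO. DUSP6, the phosphatase most specific for ERK, had 5, 8 and 16 reads in FGFR1 cells and 19, 16 and 22 in HcRed cells (log2 fold change -1.22, limma adjusted p = 0.0588). DUSP4 had 31, 32 and 35 against 61, 33 and 40 reads (-0.56, limma adjusted p = 0.155). In CPM the groups did not overlap for either gene, and against GFP both turned, to 0.32 for DUSP6 and 0.37 for DUSP4, without being called. SPRY1, SPRY2 and SPRY4 had at most 9 reads in any of the 6 libraries, so a modest change in them was not detectable at this depth. Against the other overexpression lines, 7 of 18 members were called lower and none higher: CCND1, DUSP4, DUSP6, EPHA2, ETV5, SPRED1 and SPRED2. With the carcinogens 7 of 18 were called lower and none higher, DUSP4 (-0.57), DUSP6 (-0.89) and DUSP7 (-0.40) among them. Of all genes 1.86% were called lower over the other overexpression lines and 4.83% with the carcinogens.

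In the other lines these genes ranged widely. DUSP6 stood at 9.36 ± 5.76 CPM in FGFR1 cells (SD, n = 3) and at 20.2 ± 3.36 in HcRed cells, between 29.41 and 42.98 CPM in the NRG1 and PIK3CA lines, and between 2.46 and 10.41 CPM in the NRF2 and GFP lines. CCND1 was between 44.38 and 58.68 CPM in the GFP line, so that against GFP its log2 fold change turned to 0.36 and was not called. DUSP7, which was not called with DMSO over HcRed, was also higher than in GFP (0.55). EREG, the EGF receptor ligand epiregulin, had 27, 22 and 25 reads against 49, 31 and 46 in HcRed (-0.88, limma adjusted p = 0.0114), and its log2 fold change against GFP was 0.70 and not called (limma adjusted p = 0.0649). EREG lost its call without FGFR1 replicate 2 or HcRed replicate 3 (adjusted p up to 0.0773).

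**Figure D3:**
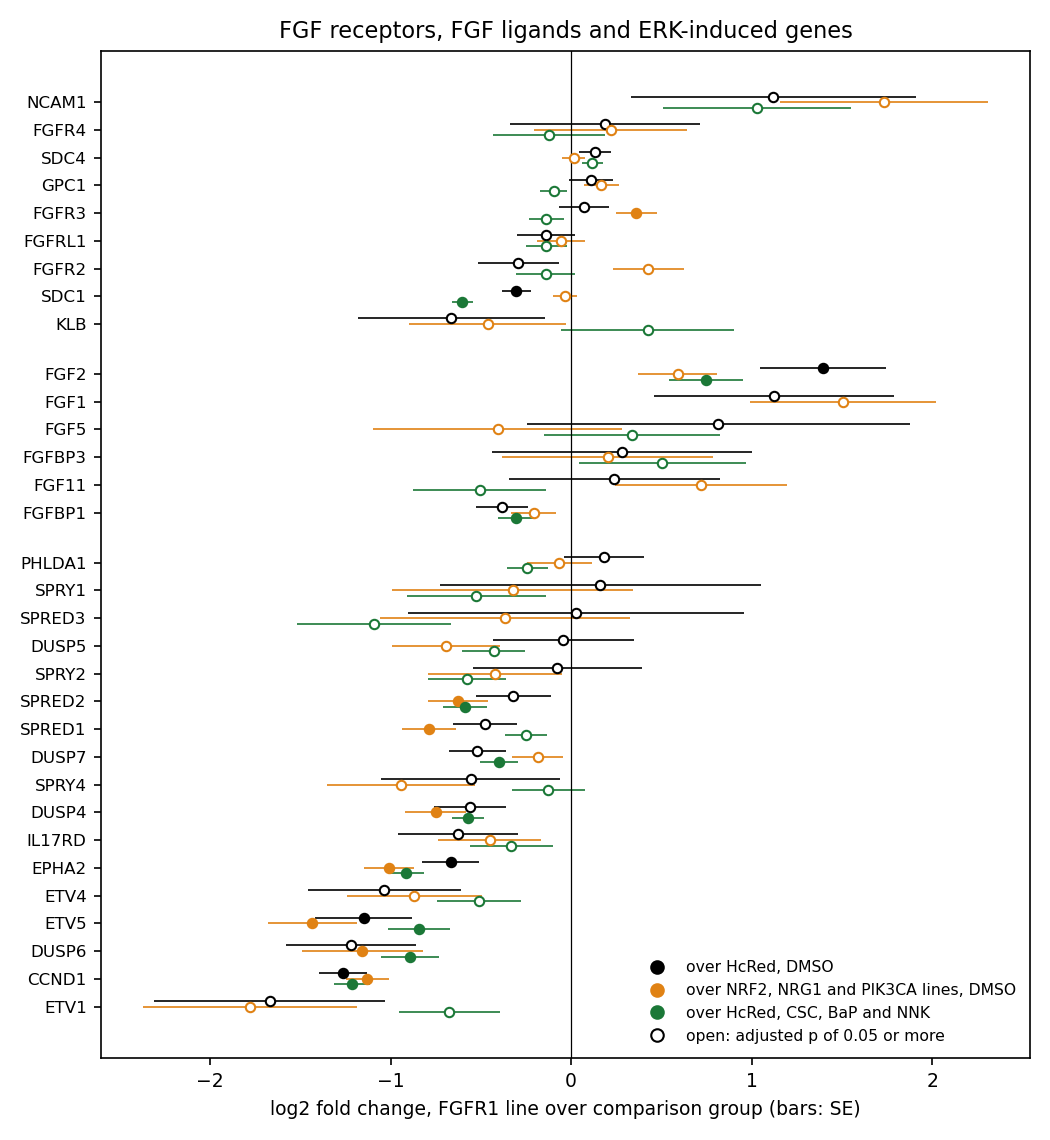
Log2 fold change (point) and SE (bar) of each tested FGF receptor or co-receptor, FGF ligand or binding protein and ERK-induced gene, FGFR1 itself left out, in the DMSO comparison with HcRed (black), over the NRF2, NRG1 and PIK3CA lines (orange) and with carcinogens (green). Filled points passed an adjusted p of 0.05, and the filled points among the ERK-induced genes all lie below 0.

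Of 14 early response transcription factors, 1 was called. ATF3, a stress-induced factor, had 26, 21 and 33 reads against 10, 7 and 10 (log2 fold change 1.37, SE 0.33, limma adjusted p = 0.00892), and -0.03 against GFP, where it was not called. The ATF3 call was lost without FGFR1 replicate 3, HcRed replicate 1 or HcRed replicate 3 (adjusted p up to 0.115). EGR1, a direct ERK target, had 78, 89 and 131 against 79, 95 and 126 reads (-0.12, limma adjusted p = 0.841). Its log2 fold change was -0.62 over the other overexpression lines and 1.44 against GFP, both called.

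Cyclin genes moved in opposite directions. CCND2, the gene of cyclin D2, had 347, 288 and 307 reads in FGFR1 cells and 177, 101 and 159 in HcRed cells, or 299.5 ± 19.7 against 150.4 ± 5.87 CPM (SD, n = 3 each; log2 fold change 0.98, SE 0.10, limma adjusted p = 3.67e-11). It was also called higher over the other lines (0.41) and with the carcinogens (1.28). It was between 369.4 and 388.5 CPM in the PIK3CA line and at most 19.38 CPM in the GFP line, so the level in FGFR1 cells lay between those of other lines. CDKN1C, the cell cycle inhibitor p57, had 73, 40 and 41 against 25, 14 and 17 reads (1.28, SE 0.24, limma adjusted p = 0.000586) and a log2 fold change of 1.95 over the other overexpression lines. CDKN1A, the inhibitor p21, was called at 0.46 and had -0.29 against GFP, where it was not called (limma adjusted p = 0.0587). It lost its call in 4 of the 6 fits that left out a library (adjusted p up to 0.162). CDKN1A was called higher over the other overexpression lines (0.61) and was not called with the carcinogens (0.105, limma adjusted p = 0.32). None of 20 DNA replication genes was called (median 0.01), and of 22 mitosis genes only MKI67 was, at -0.19 (limma adjusted p = 0.0115, 0.02 against GFP), with 1947, 1676 and 2104 against 2446, 1380 and 2149 reads that overlapped between the groups in CPM. MKI67 lost its call in 4 of the 6 fits that left out a library (adjusted p up to 0.311). Over the other overexpression lines 5 of 22 mitosis genes were called, all lower, MKI67 among them, beside 1.86% of all genes called lower. Of the replication genes 1 of 20 was called there, lower. With the carcinogens 3 of 22 mitosis genes were called lower, MKI67 among them, and none higher. There 3 of 20 replication genes were called higher and none lower, beside 4.83% of all genes called lower and 4.65% higher.

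Among called genes whose mean count reached 10 and whose groups did not overlap, those with the largest rises besides FGFR1 had low counts. MME, the cell surface peptidase neprilysin, had 24, 20 and 14 reads in FGFR1 cells and 2, 0 and 3 in HcRed cells (log2 fold change 3.29, SE 0.67, limma adjusted p = 0.00151). Without HcRed replicate 1 its adjusted p was 0.0587. TENM3, a teneurin that mediates cell adhesion, had 66, 40 and 56 against 16, 13 and 5 reads (2.24, SE 0.31, limma adjusted p = 1.07e-06). APOL1, an apolipoprotein induced by interferon, had 18, 14 and 20 against 6, 1 and 3 reads (2.19, SE 0.52, limma adjusted p = 0.00844). APOL1 lost its call without HcRed replicate 1 or 3 (adjusted p up to 0.0758).

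The 8 further genes of largest rise had log2 fold changes from 1.58 to 2.07, and HERC5, MX1 and KRT15 among them are described with their groups. ELF3, an epithelial ETS factor, had 31, 11 and 19 reads against 5, 3 and 4 (1.99). GDA, guanine deaminase, had 26, 21 and 14 against 5, 3 and 5 (1.96), and CSPG4, the NG2 proteoglycan, had 39, 26 and 21 against 7, 5 and 10 (1.77). L1CAM, a neural adhesion molecule that can bind and activate FGFR1, had 75, 55 and 40 against 22, 13 and 15 reads (1.59, SE 0.25, limma adjusted p = 1.43e-05). MAP1B, a microtubule-associated protein of neurons, was among the genes with the lowest adjusted p, with 276, 284 and 327 against 144, 96 and 119 reads (1.17, SE 0.11, limma adjusted p = 4.48e-12). MAN1A1, a Golgi mannosidase, had 30, 18 and 17 against 8, 6 and 3 reads (1.80), but its log2 fold change against GFP was -0.29 and not called. GDA and CSPG4 lost their calls without HcRed replicate 1 (adjusted p 0.0832 and 0.058), as did ELF3 and MAN1A1 (up to 0.112 and 0.103). Of these, ELF3 was not called with the carcinogens (0.45, limma adjusted p = 0.189) nor against GFP (0.14). GDA, CSPG4, L1CAM and MAP1B were called higher both over the mean of the other overexpression lines and with the carcinogens.

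Levels in the other lines put some rises in context. MME was at 18.36 ± 4.18 CPM in FGFR1 cells (SD, n = 3) and at 1.55 ± 1.47 in HcRed, but between 19.48 and 23.99 CPM in the PIK3CA line and between 23.75 and 26.95 CPM in the CDKN2A knockout line. TENM3 was at 51.41 ± 11.3 CPM in FGFR1 and at 12.39 ± 6.93 in HcRed, and between 54.24 and 80.27 CPM in the PIK3CA line, and its log2 fold change over the other overexpression lines was 0.44 and not called (limma adjusted p = 0.0951). GDA was at 19.30 ± 5.08 CPM in FGFR1 and at 4.48 ± 0.33 in HcRed, and between 18.74 and 24.18 CPM in the PIK3CA line. In the NRF2 and NRG1 lines GDA was at most 7.38 CPM. For APOL1 the FGFR1 libraries were at 16.57 ± 3.08 CPM, and no DMSO library of another line exceeded 10.07 CPM.

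**Figure D4:**
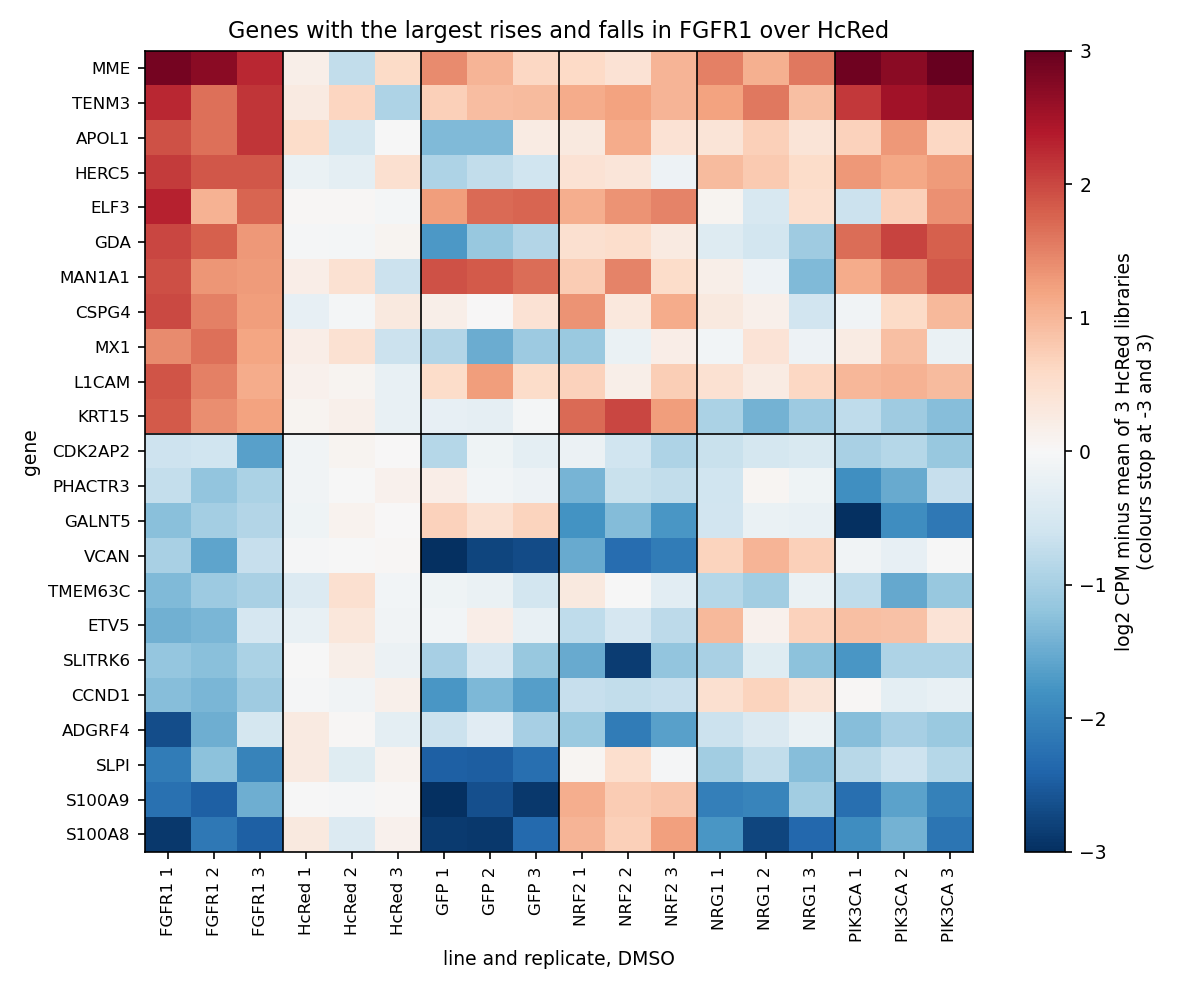
Heat map of the genes with the largest rises (top block) and falls (bottom block) in FGFR1 over HcRed, 1 column per DMSO library of 6 lines, coloured by log2 CPM minus the mean of the 3 HcRed libraries. The ranking covers called genes whose mean count reached 10 and whose groups did not overlap. By that rule the 3 FGFR1 columns lie on the same side of HcRed in each row. MME, TENM3 and GDA are also high in the PIK3CA columns, and S100A8, S100A9 and SLPI are low in the GFP columns as well.

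Keratins changed in both directions. KRT7, a keratin of simple and glandular epithelia, had 487, 485 and 496 reads in FGFR1 cells and 260, 129 and 195 in HcRed cells (log2 fold change 1.21, SE 0.09, limma adjusted p = 2.26e-16). KRT8, its usual companion in simple epithelia, had 244, 229 and 236 against 113, 64 and 112 reads (1.17, SE 0.11, limma adjusted p = 1.73e-11). Both stood clear of HcRed and held their calls whichever library was left out. KRT15, a keratin of basal stem cells, had 69, 48 and 41 against 20, 13 and 14 reads (1.58, SE 0.25, limma adjusted p = 1.79e-05) and was called over the mean of the other overexpression lines as well (1.82, limma adjusted p = 7.99e-11). By line, KRT15 was at 49.98 ± 11.8 CPM in FGFR1 (SD, n = 3), between 41.80 and 71.36 CPM in the NRF2 line, and at most 8.88 CPM in the NRG1 and PIK3CA lines. KRT7 in contrast was not called over those lines (0.10, limma adjusted p = 0.462). It was at 467.7 ± 21.37 CPM in FGFR1 (SD, n = 3) and 199.3 ± 21.97 in HcRed, between 645.6 and 1063 CPM in the NRF2 and PIK3CA lines, between 106.6 and 133.4 CPM in the NRG1 line and at most 33.33 CPM in GFP.

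Most of the other basal markers fell. Of 19 basal epithelial markers tested, 11 were called lower and 2 higher, KRT15 and the nerve growth factor receptor NGFR, and their summed level was 11080 to 12250 CPM in the FGFR1 libraries against 14080 to 14730 CPM in the HcRed libraries. KRT6A, a keratin of activated keratinocytes, had 1345, 1209 and 1231 reads with FGFR1 and 2513, 1399 and 2026 with HcRed (log2 fold change -0.77, SE 0.04, limma adjusted p = 3.13e-21). KRT14 had 323, 299 and 240 against 631, 423 and 476 reads (-0.95, SE 0.09, limma adjusted p = 1.33e-12). Neither overlapped between the groups, though against GFP KRT6A was not called (0.00, limma adjusted p = 0.999). KRT5 and KRT17 were called lower by less, at -0.17 and -0.39, and KRT16 at -0.95. KRT6A, KRT6B and KRT6C, and likewise KRT14, KRT16 and KRT17, are close copies in sequence, so their reads may have been split in counting and their separate values are uncertain. TP63, the master factor of basal cells, was not called with DMSO (267, 208 and 195 against 212, 129 and 236 reads).

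Over the other overexpression lines the basal list looked different, with 4 called higher, KRT17 (0.19) and TP63 (0.32) among them, and 3 lower, KRT6A (-0.42) and KRT14 (-0.29) among them. With the carcinogens, 13 of 19 were called lower and 2 higher. Of all genes 2.46% were called higher and 1.86% lower over the other overexpression lines, and 4.65% and 4.83% with the carcinogens. LAMA3 and LAMB3 encode chains of the laminin beneath basal cells. LAMA3 fell by 0.32 and LAMB3 by 0.36. ITGA6, the integrin that binds this laminin, had 648, 670 and 613 reads against 1145, 593 and 934 (-0.59, SE 0.06, limma adjusted p = 1.17e-10), and its partner ITGB4 was not called over HcRed (0.08, limma adjusted p = 0.678) and was lower than in GFP (-0.27, called). In all, 5 of 22 integrin and matrix genes were called lower and none higher.

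Among squamous differentiation genes S100A8, S100A9 and SPRR1B fell. S100A9 and S100A8 form the antimicrobial protein calprotectin: S100A9 had 20, 16 and 33 reads against 108, 64 and 98 (log2 fold change -2.14, SE 0.21, limma adjusted p = 3.87e-11), and S100A8 had 1, 3 and 2 against 28, 10 and 22 (-3.23, SE 0.59, limma adjusted p = 0.000255). SPRR1B, a cornified envelope protein, had 0, 3 and 1 against 25, 9 and 17 reads (-3.79, SE 0.73, limma adjusted p = 0.000627), and SPRR genes resemble each other, so its value is uncertain. SLPI, a secreted protease inhibitor of airway epithelium, had 6, 12 and 6 against 42, 16 and 33 reads (-2.04, SE 0.35, limma adjusted p = 8.46e-05). None of these overlapped between the groups, which the rule for naming the largest falls required of S100A8, S100A9 and SLPI. Of 33 squamous genes, 17 passed the count filter and 3 were called, all lower, with a median log2 fold change of -0.57 over the 17. With the carcinogens 12 of 19 were called lower and 1 higher, S100A9 (-2.44), S100A8 (-3.06) and SPRR1B (-3.81) among them. Of all genes 4.83% were called lower and 4.65% higher there.

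The direction of most of these falls depended on the control. Against GFP, S100A8 was at 0.30, S100A9 at 0.98 and SLPI at 0.76 on the log2 scale, all on the other side of 0. Of these only S100A9 was called (limma adjusted p = 0.0299). SPRR1B stayed below 0 against GFP, at -1.07, and was not called (limma adjusted p = 0.416). S100A9 was at 22.09 ± 9.12 CPM in FGFR1 cells (SD, n = 3), at 93.24 ± 2.15 in HcRed, between 158.7 and 199.5 in the NRF2 line and between 7.72 and 13.25 in the GFP line. The remaining leading falls were GALNT5, a mucin-type glycosyltransferase, with 17, 19 and 21 against 42, 30 and 41 reads (-1.10, SE 0.24, limma adjusted p = 0.00324), and VCAN, the matrix proteoglycan versican, with 30, 18 and 34 against 63, 39 and 59 (-1.13, SE 0.21, limma adjusted p = 0.000371). VCAN had a log2 fold change of 2.31 against GFP, called. GALNT5 was at 18.20 ± 2.56 CPM in FGFR1 cells (SD, n = 3), between 2.96 and 14.77 in the PIK3CA and NRF2 lines and between 26.08 and 34.31 in the NRG1 line. Over the mean of these lines GALNT5 was at 0.445 and not called (limma adjusted p = 0.373). With the carcinogens it was called lower (-1.845), and by DESeq2 it was not called over HcRed with DMSO (adjusted p = 0.0991). ADGRF4, CDK2AP2, PHACTR3, SLITRK6 and TMEM63C completed the largest falls by the same rule as the rises, from -0.99 to -1.89. Each of these 5 lost its call when at least 1 of the 6 libraries was left out.

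Mesenchymal genes rose in part. Of 16 tested, 5 were called higher and 1 lower, with a median log2 fold change of 0.35. SPARC, a matricellular glycoprotein, had 144, 147 and 126 reads in FGFR1 cells and 62, 31 and 56 in HcRed cells (1.36, SE 0.15, limma adjusted p = 8.12e-10). FN1, fibronectin, had 1060, 1205 and 1183 against 892, 578 and 785 reads (0.48, SE 0.06, limma adjusted p = 5.15e-08), and VIM, the intermediate filament vimentin, had 78, 97 and 99 against 54, 38 and 55 (0.76, SE 0.16, limma adjusted p = 0.00258). TGFBI, a matrix protein induced by TGF-beta, was called at 0.21, while THBS1, thrombospondin 1, was called lower at -0.39. The transcription factors of epithelial-mesenchymal transition were not called over HcRed with DMSO: SNAI2 had 66, 79 and 58 against 84, 57 and 75 reads, and ZEB1 at most 7 in any library. Nor was CDH1, E-cadherin, with 585, 560 and 502 against 632, 384 and 576 reads (-0.07, limma adjusted p = 0.711), and among 20 epithelial junction genes CLDN1 alone was called (-0.87), a call lost without HcRed replicate 1 (0.0606) and by DESeq2 (0.114). With the carcinogens 3 of these 20 were called higher and 3 lower, CDH1 (-0.20) and CLDN1 (-0.43) among the latter. Of 15 mesenchymal genes tested there, 6 were called higher and 2 lower, with SNAI2 among the 8 called. Of all genes 4.65% were called higher and 4.83% lower there. VIM lost its call without HcRed replicate 1 (adjusted p 0.0785), and with FGFR1 replicate 1 alone it was 0.48 (limma adjusted p = 0.463). SPARC was also called higher over the other overexpression lines (0.47) and with the carcinogens (1.51). FN1 was at 1100 ± 112.5 CPM in FGFR1 (SD, n = 3) and higher in the NRG1 and PIK3CA lines, between 1429 and 1858 CPM. It was lower in the NRF2 line, between 244.9 and 270.0 CPM, and in the GFP line, at most 134.9 CPM.

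Some interferon-stimulated genes rose and none fell. Of 26 listed, 22 passed the count filter, 20 of them had a log2 fold change above 0, and 6 were called, all higher, with a median of 0.71. IFIT3, an antiviral tetratricopeptide protein, had 45, 42 and 59 reads in FGFR1 cells and 20, 16 and 18 in HcRed cells (1.28, SE 0.24, limma adjusted p = 4.00e-04). IFIT2 had 59, 39 and 61 against 26, 11 and 31 reads (1.10, SE 0.23, limma adjusted p = 0.00253). MX1, a GTPase that blocks viral replication, had 29, 33 and 23 against 12, 9 and 5 (1.62, SE 0.34, limma adjusted p = 0.00215). No HcRed library reached an FGFR1 library in CPM for any of the 3, which the rule for naming the largest rises required of MX1. OAS3 (0.57), DDX58 (0.65), the RNA sensor RIG-I, and IFI44L (2.64, with 11, 13 and 6 against 1, 1 and 1 reads) made up the 6, and HERC5, a ligase of the ubiquitin-like protein ISG15 that is not in the list, was among the largest rises with 50, 40 and 39 against 9, 5 and 14 reads (2.07, SE 0.31, limma adjusted p = 5.69e-06). IFIT genes are close copies of each other, so their split is uncertain. IFI44L lost its call without any 1 of 5 libraries (adjusted p up to 0.242), IFIT2 without HcRed replicate 1 (0.0556) and MX1 without HcRed replicate 3 (0.0637).

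In other comparisons the calls in this list were higher too. Over the NRF2, NRG1 and PIK3CA lines 9 of 21 were called, all higher (median 0.76), beside 2.46% of all genes called higher. With the carcinogens 13 of 20 were called, all higher (median 1.03), ISG15 (1.37) and IFIT1 (1.48) among them, beside 4.65% of all genes. IFIT1 was not called with DMSO over HcRed (21, 20 and 18 against 15, 11 and 22 reads). Of the MHC class I genes, B2M was called higher (0.41, limma adjusted p = 0.00185). The level of IFIT3 was 46.64 ± 9.94 CPM in FGFR1 cells and 19.19 ± 3.11 in HcRed cells (SD, n = 3 each), but it reached 67.03 to 81.67 CPM in the FAT1 knockout line.

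Many such genes carry an interferon-stimulated response element (ISRE), the site through which interferon acts on transcription, and the promoters of 4 called genes are printed to show the matches. Each is the 150 bases before the annotated start on GRCh38.p14, from RefSeq, with matches to TTTCNNTTTC or its reverse complement in capitals: IFIT3 at chr10:89332379-89332528, HERC5 at chr4:88456969-88457118, OAS3 at chr12:112938324-112938473 and IFI44L at chr1:78620298-78620447, all on the plus strand. In HERC5 the first run in capitals holds 2 overlapping matches, and the capitals CACGTG mark an E-box.
IFIT3: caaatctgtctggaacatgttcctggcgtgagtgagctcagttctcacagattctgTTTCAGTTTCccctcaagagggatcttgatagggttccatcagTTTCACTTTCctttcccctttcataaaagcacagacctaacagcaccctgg
HERC5: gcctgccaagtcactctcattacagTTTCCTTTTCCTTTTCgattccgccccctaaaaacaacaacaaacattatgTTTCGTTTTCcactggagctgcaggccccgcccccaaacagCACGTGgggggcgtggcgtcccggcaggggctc
OAS3: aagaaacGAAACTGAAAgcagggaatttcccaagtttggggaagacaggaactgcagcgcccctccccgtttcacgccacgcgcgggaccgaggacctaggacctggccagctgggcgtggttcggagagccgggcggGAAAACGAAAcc
IFI44L: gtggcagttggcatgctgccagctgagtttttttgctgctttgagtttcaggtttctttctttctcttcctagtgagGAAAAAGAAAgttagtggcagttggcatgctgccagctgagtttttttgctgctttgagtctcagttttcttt

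Over 250 bases before the start and both strands, this motif, which was chosen after the values were seen, was found in 3.14% of 27305 RefSeq promoters. It was found in 14 of the 114 genes called higher with a promoter in the table (12.3%) and in 1 of 85 called lower (1.18%). In the interferon list it was found in 4 of 5 called and in 7 of 10 genes tested and not called. The AP-1 site TGACTCA, bound by FOS and JUN factors, was found in 4.38% of all promoters, in 1 of 114 genes called higher (0.877%) and in 9 of 85 called lower (10.6%). The ETS site CCGGAAGT was in 3.54% of all, in 3.51% of those called higher and in 3.53% of those called lower, and the E-box CACGTG was in 6.28%, 11.4% and 2.35%. A match says that these letters are present in the window and nothing about binding.

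FTL, FTH1 and SLC7A11 rose. FTL and FTH1 encode the light and heavy chain of ferritin. FTL had 348, 366 and 347 reads in FGFR1 cells and 231, 115 and 184 in HcRed cells (log2 fold change 0.88, SE 0.09, limma adjusted p = 2.44e-10), and FTH1 had 710, 638 and 589 against 540, 305 and 355 (0.58, SE 0.07, limma adjusted p = 1.68e-07). SLC7A11, the cystine transporter, had 308, 329 and 294 against 159, 81 and 175 reads (1.06, SE 0.11, limma adjusted p = 4.49e-11). These genes did not overlap between the groups and were called higher over the mean of the other overexpression lines and with the carcinogens too. In the NRF2 line itself FTL was between 340.2 and 375.3 CPM and FTH1 between 592.2 and 624.6 CPM, against 338.1 ± 17.95 and 615.6 ± 34.9 CPM in FGFR1 (SD, n = 3). SLC7A11 had -0.18 against GFP, where it was not called. With NQO1 (0.51), 4 of 21 NRF2 target genes were called, all higher. NQO1 lost its call without HcRed replicate 1 (limma adjusted p = 0.0732) and was not called with the carcinogens or against GFP. Nor was NQO1 called over the other overexpression lines, whose mean includes the line that overexpresses NFE2L2. NFE2L2 itself was not called (262, 225 and 253 against 273, 145 and 217 reads). Of 18 ATF4 target genes, 4 were called, all higher: SLC7A11, SLC7A5 (0.21), PHGDH (0.44, -0.57 against GFP) and STC2 (0.71, -0.40 against GFP). Of the last 3, PHGDH was called lower against GFP, and each lost its call over HcRed when at least 1 library was left out. SLC7A11 counts in both lists.

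In cholesterol synthesis, of 20 genes tested, 17 had a log2 fold change below 0 (median -0.18), and 3 were called lower, SC5D (-0.65) among them. SC5D, a sterol desaturase, had 84, 70 and 71 reads against 139, 77 and 109 (limma adjusted p = 0.00168), with no overlap in CPM, and was not called against GFP (-0.04). Over the other overexpression lines 9 of 20 were called and with the carcinogens 14 of 20, all lower. Of all genes 1.86% and 4.83% were called lower in these 2 comparisons.

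No member was called over HcRed with DMSO among ciliated, fibroblast, endothelial and blood cell markers, cytokines and chemokines (14 tested), Notch genes (13) and hypoxia and glycolysis genes (17). Of 17 TGF-beta genes TGFBR2 was called (-0.40, 0.51 against GFP), of 21 WNT genes SFRP1 (-0.63, limma adjusted p = 1.09e-07), of 14 YAP target genes the kinase AXL (0.58), of 11 desmosome genes DSP (-0.15) and of 14 protease genes 3, with MMP14 (0.36) and TIMP2 (0.82) among them. TGFBR2 and MMP14 lost their calls in 5 of 6 fits that left out a library (adjusted p up to 0.332 and 0.321), AXL without HcRed replicate 1 (0.0643) and DSP without FGFR1 replicate 3 (0.189). Over the other overexpression lines 6 of 10 desmosome genes were called, all higher, DSP at 0.19, beside 2.46% of all genes called higher. SFRP1, a secreted WNT inhibitor, had 321, 281 and 267 reads against 525, 271 and 441, with no overlap in CPM. Over the other overexpression lines 3 of 13 Notch genes were called, all higher. Called lower there were 2 of 17 hypoxia and glycolysis genes and 1 of 18 cytokines and chemokines. With the carcinogens 5 of 14 Notch genes were called, 2 higher and 3 lower. Of 17 cytokines and chemokines 2 were called higher there and 1 lower. There 2 of 18 hypoxia and glycolysis genes, 1 of 6 ciliated and 1 of 5 fibroblast markers were called, beside 9.48% of all genes.

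The carcinogen-treated libraries, which the DMSO comparison did not use, gave the same contrast in the same 2 lines. Of the 155 genes called higher with DMSO, 153 kept their sign, 127 (81.9%) were called higher and none was called lower. Of the 110 called lower, all kept their sign and 96 (87.3%) were called lower. Of all genes tested with the carcinogens 4.65% were called higher and 4.83% lower. Both sets of libraries come from the same 2 lines and share no library. With a single treatment, limma called 418 genes with CSC, 201 with BaP and 338 with NNK. A test of the difference between the DMSO and the carcinogen effects called no gene by limma (624 at an unadjusted p under 0.05) and 2 by edgeR (612 unadjusted), NRG1 and CYP1A1.

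The called genes were not spread evenly over the chromosomes, which was seen after the values were known and is given as a description. Among 8004 genes whose mean count reached 20 and whose position on GRCh37 was known, 52.7% had a log2 fold change below 0 with DMSO, and 127 (1.59%) were called higher and 101 (1.26%) lower. On chromosome 13 it was 79.0% of 157 genes, with 9 called lower (5.73%) and none higher, and on chromosome 2 it was 72.5% of 559 genes, with 14 called lower (2.5%) and 2 higher. Chromosome 9 lay the other way, at 27.5% of 353 genes, with 7 called higher (1.98%) and none lower, and chromosome 5 had 19 called higher (4.62%) and 1 lower of 411. The medians were small, -0.15, -0.13 and 0.12 on chromosomes 13, 2 and 9, and with the carcinogens they were -0.10, -0.13 and 0.12. Over the NRF2, NRG1 and PIK3CA lines they were -0.06, -0.06 and 0.09, and against GFP -0.32, 0.06 and -0.12.

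CCND1 lies inside such a stretch. Between 60 and 90 Mb of chromosome 11, 138 of 169 genes (81.7%) had a log2 fold change below 0, with a median of -0.20 with DMSO and -0.25 with the carcinogens, and 12 were called lower (7.10%) and 2 higher (1.18%). The 12 included RPS6KB2, the ribosomal S6 kinase 2 (-0.94), CDK2AP2 (-0.99), P2RY2, a nucleotide receptor (-0.79), ACER3, a ceramidase (-0.52), and CTSC, the protease cathepsin C (-0.59). FTH1 and the noncoding RNA NEAT1 were the 2 called higher. CCND1 itself fell by 1.26. Over the other overexpression lines the stretch had a median of -0.09 and against GFP of -0.04, and over HcRed the NRF2 line had -0.13, the PIK3CA line -0.21 and the NRG1 line 0.03, comparisons that share the HcRed libraries with the first. The part of position in any single gene's change was not tested.

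**Figure D5:**
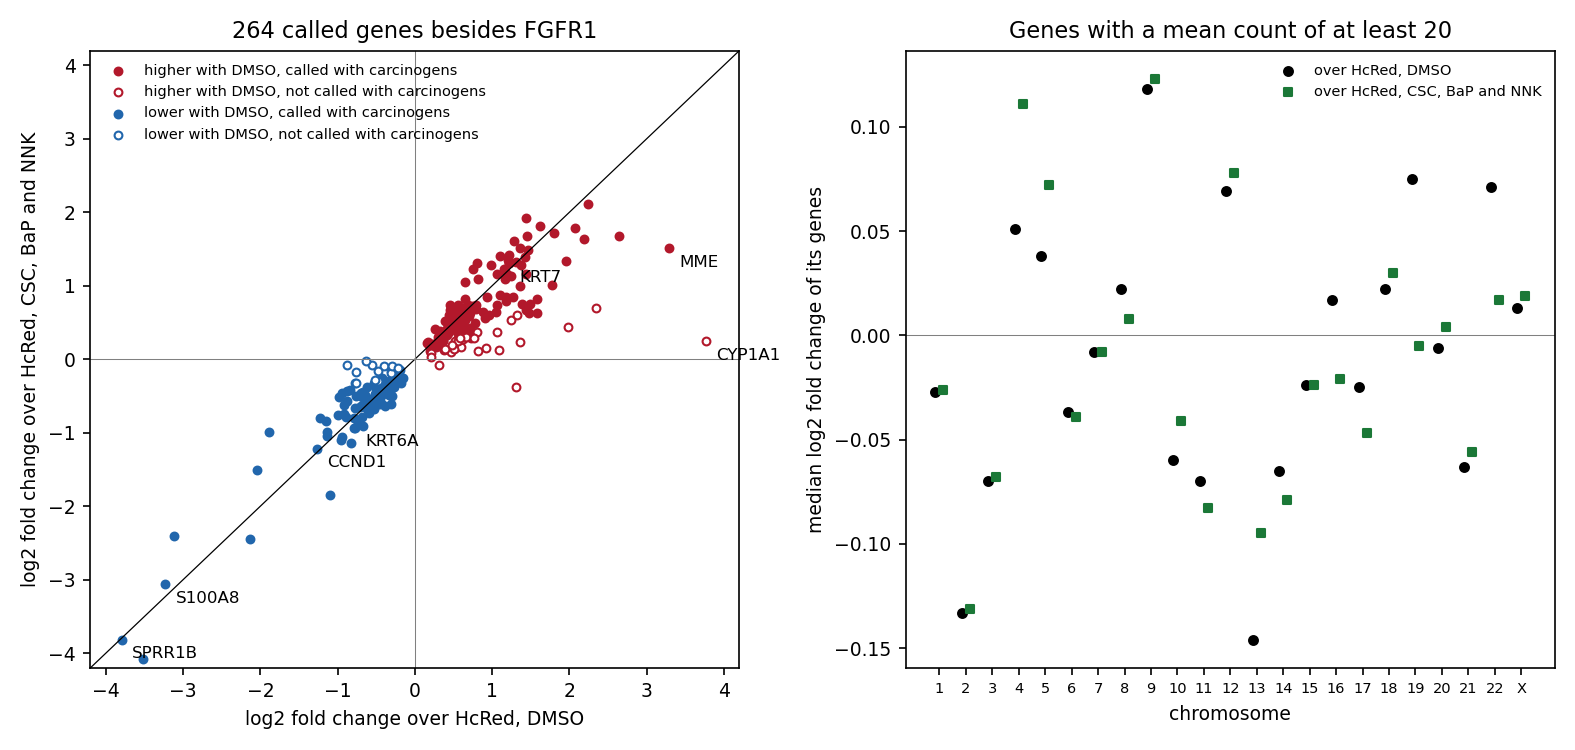
Left, log2 fold change with the 3 carcinogens against that with DMSO for the called genes other than FGFR1, filled where also called with carcinogens, with the line of equal values. Right, median log2 fold change of the genes on each chromosome with DMSO (circles) and with carcinogens (squares): chromosomes 2 and 13 lie lowest with DMSO and chromosome 9 highest.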

How the data were processed

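SFL RNA-seq libraries were read as the raw counts per gene that the authors deposited, 1 table per library. According to the submitters' processing notes, reads were trimmed with cutadapt 1.12, checked with FastQC 0.11.5 and aligned to hg19 with STAR 2.5.2b, and featureCounts assigned them to genes. Molecular identifiers were not stated, so PCR copies may be counted, and the count tables give no transcript length.

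Samples were grouped by their labels. The 6 DMSO libraries held 694898 to 1173281 reads, and the 17 carcinogen libraries of the FGFR1 and HcRed lines 287446 to 2116383, which limits genes of few reads. Replicates differed by more than sampling noise (chi-square per gene of 1.26 to 1.40), so none was merged. Genes with a mean count above 1 were scaled by TMM and tested by limma 3.58.1 on voom-transformed counts in R 4.3.3, two-sided, with Benjamini-Hochberg adjustment at 0.05. CPM levels come from 1 TMM scaling of 41 libraries. Scripts were tested on simulated data. Gene positions on GRCh37 matched 93.7% of tested genes.

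Named genes were FGFR1 and the other perturbed genes, the 12 largest rises and 12 largest falls among called genes whose mean count reached 10 and whose groups did not overlap, the 5 lowest adjusted p-values, up to 4 called and 2 uncalled members of each list, and every tested FGF receptor, ligand and ERK-induced gene. Some genes are not reported here. Members outside this rule that are given with their reads were taken from the same lists. The members and lists were chosen with earlier results of these data known. Alternatives were edgeR 4.0.16, DESeq2 1.42.0, other scaling, filters, weights and controls, a replicate block, GC content and length correction, and leaving out libraries. Leaving out FGFR1 replicates 2 and 3, the test of the difference between treatments, the interferon motif and the view by chromosome were added after the data were seen.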

Additional observations from a re-analysis of the deposited data

Results flagged for a closer look

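NRG1 reads appeared in libraries outside the NRG1 overexpression line. Besides FGFR1 replicates 2 and 3 with DMSO, CDKN2A replicate 3 with DMSO, which enters no comparison here, held 287 reads of NRG1, or 252.5 CPM, against 27.82 and 36.55 CPM in the other 2 CDKN2A libraries and at most 32.86 CPM in any HcRed library. That is 7.68 times the highest HcRed library.

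The difference between the FGFR1 effect with carcinogens and with DMSO was called for NRG1 by edgeR, at -2.77 on the log2 scale (adjusted p = 0.000494), and not by limma (-2.07, adjusted p = 0.999). The NRG1 value with DMSO rests on FGFR1 replicates 2 and 3, and with replicate 1 alone it was -0.17 (limma adjusted p = 0.944).

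CYP1A1, the enzyme that oxidises benzo(a)pyrene and is induced through the aryl hydrocarbon receptor, was the other gene for which edgeR called this difference, at -3.71 (adjusted p = 0.0192), with -3.56 and an adjusted p of 0.999 by limma. With DMSO it had 11, 12 and 17 reads in FGFR1 cells and 2, 0 and 0 in HcRed cells (log2 fold change 3.77, limma adjusted p = 0.00445). With the carcinogens the libraries held 23 to 736 reads against 20 to 540 (0.25, limma adjusted p = 0.0591). The gene was picked out after its values were seen, and its mean count lies below 10.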

How the results depend on the processing

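The count of genes called between FGFR1 and HcRed with DMSO was 265, and it was 83 by DESeq2, 119 to 274 when 1 library was left out (119 without HcRed replicate 1), 121 with FGFR1 replicate 1 alone, when 79.3% of calls were higher instead of 58.5%, and 2913 with GFP in place of HcRed. Over the NRF2, NRG1 and PIK3CA lines it was 619, and it was 199 by DESeq2, 313 to 608 when 1 library was left out (313 without FGFR1 replicate 1 and 398 without replicate 2) and 268 without FGFR1 replicates 2 and 3. With carcinogens it was 1357, and it was 725 without CSC, 661 without NNK and 1031 to 1378 when 1 library was left out. Of the 67 called named genes checked, 35 were not called over HcRed with DMSO by DESeq2, with FGF2, ATF3, MX1, IFIT2 and VIM among them. Fewer samples enter the fits that leave some out, and for DESeq2 the cause was not tested. The other scaling, filters and edgeR kept each of the 3 counts within 1.5 times, as did weights and GC content and length correction for the comparison with HcRed with DMSO, the only one in which they were run.

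After each group's mean per gene was taken out, same-numbered FGFR1 and HcRed libraries correlated at -0.000825, -0.0103 and 0.0171. Libraries of unlike number correlated between -0.0232 and 0.0218. What is left of each library also holds counting noise, so these values cannot decide whether replicate numbers pair the samples. With a replicate block 373 genes were called, and 401 with the block and the GC content and length correction together.

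Among the named genes reported here, a change of sign in which either value was called occurred only with GFP in place of HcRed. Genes called under neither setting also changed sign, as NRG1 did with FGFR1 replicate 1 alone (-0.173). The log2 fold change was then -0.027 for ATF3, -0.29 for CDKN1A, -0.27 for ITGB4, -0.29 for MAN1A1, -0.25 for MCM4, -0.43 for MTHFD2, -0.57 for PHGDH, -0.18 for SLC7A11, -0.40 for STC2 and -0.28 for TGFBR1. It was 0.36 for CCND1, 0.55 for CRIM1, 0.55 for DUSP7, 0.56 for EGFR, 1.44 for EGR1, 0.70 for EREG, 0.38 for LDHA, 0.021 for MKI67, 0.30 for S100A8, 0.98 for S100A9, 0.38 for SDC1, 0.38 for SHC1, 0.76 for SLPI, 0.51 for TGFBR2 and 2.31 for VCAN. GFP cells differ from HcRed cells in the vector and in how they were made, and the cause was not tested.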
